A study of Homo sapiens with 14 samples.

Results

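The 10 genes described here are NFE2L2, which encodes the transcription factor NRF2, KEAP1, which encodes the protein that holds NRF2 back, and 8 antioxidant genes known as NRF2 targets. The targets are HMOX1, NQO1, GCLC, GCLM, SLC7A11, TXNRD1, SRXN1 and SQSTM1. The genes were taken from a list of names, and all 10 were found among the 24638 genes listed in every kind of table. All 10 also passed the filter on low counts in both tested comparisons, which covered 15338 and 15116 genes, although SQSTM1 passed on very few counts in 1 of them.

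RNA-seq was done on IMR90, primary human fetal lung fibroblasts, in 7 groups. Its 2 isolates are named I79 and I10, and each was sampled young (proliferating) and old (passaged into replicative senescence). The I79 ICM group is isolate I79 at low passage treated with inflachromene (ICM), a compound known to bind HMGB1 and HMGB2, both chromatin proteins. The WT group is wild type and the HMGB2 KD group had HMGB2 knocked down by siRNA. For these groups the labels give neither the isolate nor the passage, nor whether WT cells received a control siRNA, and they give no dose or duration for ICM. Each old or young group had 1 column of values, so it carries no SD, while I79 ICM, WT and HMGB2 KD had 2 libraries each. The labels do not say that replicates came from separate cultures, so p-values measure the spread between these libraries, which may be technical.

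NRF2 is normally bound by KEAP1 and sent for degradation, and oxidants or electrophiles that modify KEAP1 let it accumulate in the nucleus. There it pairs with small MAF proteins on antioxidant response elements and raises genes for glutathione synthesis, the thioredoxin system, quinone reduction and heme breakdown. This control acts mostly on the NRF2 protein, so the NFE2L2 transcript need not move with its targets. SQSTM1 encodes p62, an autophagy receptor that binds KEAP1 and is itself a target, and NRF2 activity has been studied in senescent fibroblasts as a defence against oxidative stress.

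Antioxidant response elements share a core whose letters are TGACNNNGC on one strand. RefSeq promoters (GRCh38.p14, 250 bases before and 50 after each start) were found for 8 of the 10 genes, in 13 windows, with none for HMOX1 and SLC7A11. The core, searched on both strands, occurred in 4 windows of 3 genes (GCLM, TXNRD1 and KEAP1), and in 13.3% of all 35116 promoter windows. The 250 bases before the start are shown for these 4 windows because they carry the one sequence feature linked to the pathway, with the core in capitals on whichever strand it lies. The GCLM window is chr1:93909431-93909680 on the minus strand, the TXNRD1 windows are chr12:104215529-104215778 and chr12:104286782-104287031 on the plus strand, and the KEAP1 window is chr19:10502772-10503021 on the minus strand.
GCLM: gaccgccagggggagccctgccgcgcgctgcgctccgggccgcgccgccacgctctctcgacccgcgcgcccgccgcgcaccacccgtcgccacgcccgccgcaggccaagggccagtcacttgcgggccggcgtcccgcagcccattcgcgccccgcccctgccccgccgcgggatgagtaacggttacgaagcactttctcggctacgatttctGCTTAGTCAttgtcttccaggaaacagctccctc
TXNRD1 first start: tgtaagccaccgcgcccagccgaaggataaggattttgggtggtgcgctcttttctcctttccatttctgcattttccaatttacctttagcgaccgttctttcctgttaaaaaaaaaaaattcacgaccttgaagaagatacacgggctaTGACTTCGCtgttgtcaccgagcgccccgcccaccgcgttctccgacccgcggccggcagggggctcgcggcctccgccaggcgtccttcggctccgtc
TXNRD1 second start: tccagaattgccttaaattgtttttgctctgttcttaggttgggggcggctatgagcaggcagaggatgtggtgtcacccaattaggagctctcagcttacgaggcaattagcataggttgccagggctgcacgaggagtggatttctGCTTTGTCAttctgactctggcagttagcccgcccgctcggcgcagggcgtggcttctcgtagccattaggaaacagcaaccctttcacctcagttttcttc
KEAP1 second start: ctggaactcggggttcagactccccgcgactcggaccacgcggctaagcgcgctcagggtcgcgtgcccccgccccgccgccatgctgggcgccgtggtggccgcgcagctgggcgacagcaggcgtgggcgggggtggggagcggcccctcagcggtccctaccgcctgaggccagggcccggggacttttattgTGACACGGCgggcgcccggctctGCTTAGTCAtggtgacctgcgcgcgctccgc

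In GCLM the core lay 34 to 26 bases before the start. In TXNRD1 it lay 99 to 91 bases before the first start and 102 to 94 bases before the second, and a further match began 8 bases before the first start and ran over it, so it is not in capitals. The KEAP1 window held 2 matches, 54 to 46 and 31 to 23 bases before the start. The windows of NFE2L2, NQO1, GCLC, SRXN1 and SQSTM1 held no match, which says only that these letters were not in these windows. The AP-1 site TGACTCA, whose letters overlap the core in part, was in 0 of the 13 windows and in 4.95% of all windows. A match is a description of letters and not a measured binding site.

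Levels were compared between genes on the deposited TPM, which is scaled by transcript length and was given for the 4 old and young columns. NQO1 was highest on average, between 187 and 891 TPM, followed by TXNRD1 (337 to 582 TPM), SQSTM1 (298 to 633 TPM) and NFE2L2 (127 to 216 TPM). The other 6 lay well below, GCLC at 40.6 to 63.7 TPM, SRXN1 at 39.3 to 59.5, KEAP1 at 34.8 to 52.3, SLC7A11 at 33.8 to 40.4, HMOX1 at 12.4 to 47.7 and GCLM at 23.4 to 39.3 TPM. Neighbours in this order overlapped in range, apart from SQSTM1 with NFE2L2 and NFE2L2 with GCLC, so the order of the other neighbours did not exceed the spread over the columns.

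Before the results, the groups were checked against their labels. HMGB2 measured 27.1 and 27.3 CPM (counts scaled to library size and, by TMM, to library composition) in WT but 3.22 and 3.64 CPM after its knockdown (log2 fold change -2.99, adjusted p 8.28e-07 by edgeR). From young to old, CDKN1A, the cell cycle inhibitor p21, rose by 2.48 on the log2 scale and LMNB1, encoding lamin B1, fell by 2.86 (adjusted p 0.0042 and 0.0036 by edgeR). The summed level of 10 fibroblast markers lay between 12708 and 34572 CPM over all columns, lowest in the ICM libraries, against 0.35 to 8.996 CPM for 5 epithelial, 0.42 to 10.2 CPM for 3 endothelial and 24.6 to 160.2 CPM for 5 immune markers. Total counts were 33561766 to 41168932 in WT and HMGB2 KD, 14991385 to 20632959 estimated counts in the old and young columns, and 13290131 and 10971132 reads in the ICM libraries.

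The knockdown addresses how transcripts respond to the loss of HMGB2, a chromatin protein that declines in senescence. NRF2 targets were mostly lower in HMGB2 KD, with NQO1, SLC7A11, TXNRD1 and SRXN1 lower by 1.60-fold to 2.40-fold, and HMOX1 higher by 1.93-fold. Genes were called at an adjusted p under 0.01 and a log2 fold change past 0.6 in edgeR's quasi-likelihood test. Of the 10 genes, 1 was called higher and 4 lower, against 2.86% of all tested genes called higher and 2.34% lower. The median log2 fold change of the 10 was -0.53, and that of all tested genes 0.00. This median lies between SQSTM1 (-0.47) and GCLM (-0.59), and SQSTM1 had no usable value in these libraries, as described below. Both knockdown libraries lay on the same side of both WT libraries in 9 of the 10 genes, as they did in 53.8% of all genes tested. In bulk RNA, fewer cells with a transcript and less of it per cell cannot be told apart.

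**Figure D1:**
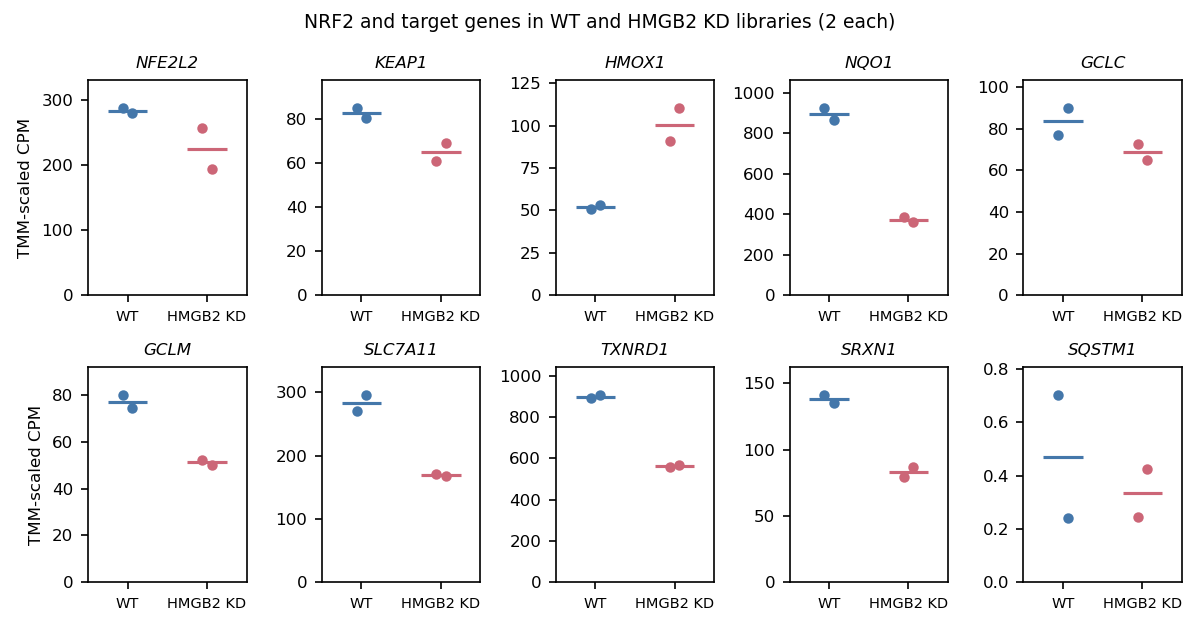
TMM-scaled CPM (y axis, linear from 0, 1 panel per gene) in the 2 WT and 2 HMGB2 KD libraries, with points for libraries and bars for group means. NQO1 fell from a mean of 895 to 373 CPM and HMOX1 rose from 52.0 to 100.5, while SQSTM1 stayed under 1 CPM in all 4 libraries.

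NFE2L2 itself (chromosome 2, 178083395 to 178257484 of GRCh37, minus strand) measured 288 and 280 CPM in WT and, after knockdown, 258 and 193 CPM. KEAP1 (chromosome 19, 10596801 to 10614234, minus strand) measured 85.1 and 80.7 CPM in WT and, after knockdown, 61.1 and 69.3 CPM. Both genes were below WT in each knockdown library, yet neither passed the test, with log2 fold changes of -0.33 (SE 0.15, adjusted p 0.21) and -0.35 (SE 0.13, adjusted p 0.10 by edgeR). NFE2L2 overlaps HNRNPA3 and AGPS on the opposite strand in the annotation, and the sources do not say whether strand was used in counting, so reads could be shared there.

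HMOX1 (chromosome 22, 35776354 to 35790207, plus strand) encodes heme oxygenase 1, which breaks heme into biliverdin, iron and carbon monoxide. It measured 50.9 and 53.2 CPM in WT and, after knockdown, 90.7 and 110.4 CPM. The groups lay apart, with means of 52.0 ± 1.6 and 100.5 ± 14 CPM (SD, n = 2), and the rise was 0.95 on the log2 scale with an SE of 0.13 (adjusted p 0.0005 by edgeR). HMOX1 was the only one of the 10 genes with a positive log2 fold change in this comparison.

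NQO1 (chromosome 16, 69740899 to 69760571, minus strand) encodes a quinone reductase that is widely used as a readout of NRF2 activity. It measured 925 and 865 CPM in WT and, after knockdown, 386 and 360.2 CPM, so each knockdown library held less than every WT library. The means were 895 ± 43 and 373 ± 18 CPM (SD, n = 2). The log2 fold change of -1.26, with an SE of 0.14 and an adjusted p of 0.00011 by edgeR, was the largest in size among the 10 genes.

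GCLC and GCLM encode the catalytic and the modifier subunit of glutamate-cysteine ligase, the first step of glutathione synthesis, and SLC7A11 encodes the cystine importer xCT that feeds it. GCLC (chromosome 6, 53362139 to 53481768, minus strand) measured 77.2 and 89.9 CPM in WT and, after knockdown, 72.7 and 64.9 CPM. GCLM (chromosome 1, 94350755 to 94375012, minus strand) measured 79.7 and 74.2 CPM in WT and, after knockdown, 52.3 and 50.01 CPM. SLC7A11 (chromosome 4, 139085251 to 139163503, minus strand) measured 270.1 and 295 CPM in WT and, after knockdown, 171 and 169 CPM. All 3 were lower in both knockdown libraries, but only SLC7A11 was called, at -0.74 on the log2 scale with an SE of 0.13 (adjusted p 0.0027 by edgeR). GCLM passed the adjusted p and missed the fold change minimum (-0.59, SE 0.12, adjusted p 0.0073), and GCLC passed neither (-0.28, SE 0.13, adjusted p 0.22 by edgeR).

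TXNRD1 encodes cytosolic thioredoxin reductase, and SRXN1 encodes sulfiredoxin, which repairs overoxidised peroxiredoxins. TXNRD1 (chromosome 12, 104609557 to 104744085, plus strand) measured 894 and 906 CPM in WT and, after knockdown, 557 and 567 CPM. SRXN1 (chromosome 20, 627259 to 633844, minus strand) measured 141 and 135 CPM in WT and, after knockdown, 79.8 and 87.1 CPM. Both fell, TXNRD1 by 0.68 ± 0.14 and SRXN1 by 0.73 ± 0.13 on the log2 scale (fitted change ± SE, adjusted p 0.0062 and 0.0021 by edgeR), and neither gene's groups overlapped. SRXN1 shares its locus with another protein-coding gene on the same strand (ENSG00000270299), so its reads may be split between them.

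SQSTM1 (chromosome 5, 179233398 to 179265078, plus strand) had no usable value in these tables. It held 24 and 9 counts in WT and 9 and 17 in HMGB2 KD, against 5836 to 15916 estimated counts in the old and young columns. Its overlapping neighbours MGAT4B and MRNIP held 0 to 2 counts in the same 4 libraries and 216 to 3274 in the old and young columns. Of 1215 genes over 100 CPM in every old, young and ICM column, 32 were under 1 CPM in all 4 libraries of WT and HMGB2 KD. The log2 fold change of SQSTM1 (-0.47, SE 0.71, adjusted p 0.77 by edgeR) is therefore not read as a level of the gene.

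The calls of HMOX1 and NQO1 held under all 11 alternatives, but TXNRD1 lost its call when any 1 of the 4 libraries was left out, with a log2 fold change of -0.69 to -0.67. SLC7A11 lost its call without replicate 2 of HMGB2 KD (-0.72) or replicate 2 of WT (-0.67), and SRXN1 without replicate 1 of WT (-0.70). The number of genes called among the 10 was 3 without replicate 1 or 2 of WT or replicate 2 of HMGB2 KD, and 4 without replicate 1 of HMGB2 KD, while GCLM was also called with scaling by plain library totals (log2 fold change -0.65).

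A further 34 genes known as NRF2 targets were examined beside the 10, and 32 of them passed the filter. Of these 32, 8 were called lower and 0 higher by edgeR, against 2.34% and 2.86% of all tested genes. Their median log2 fold change was -0.35, with values below 0 in 29. At an unadjusted p under 0.05, which 23.9% of all tested genes reached in this comparison, 16 were lower and 1 higher, and DESeq2 also called 8 lower and 0 higher. Over all tested genes DESeq2 called 535 higher and 409 lower, beside 438 and 359 by edgeR. AKR1C1, an aldo-keto reductase, measured 137 and 117 CPM in WT but 48.8 and 28.6 CPM after knockdown (log2 fold change -1.71, SE 0.20, adjusted p 0.00014). AKR1C2 fell by 1.51 and OSGIN1, an oxidative stress response gene, fell by 1.12 on the log2 scale (adjusted p 0.00087 and 0.0013 by edgeR). AKR1B10, another aldo-keto reductase, fell by 0.94 and ABCC3, an export pump for organic anions, fell by 0.92. AKR1C1 and AKR1C2 are near-identical copies, so reads could be split between them and their single values are uncertain. The other 3 called lower, named after their values were seen, were FTL, TXN and PGD, at -0.90, -0.83 and -0.66. AKR1B10 lost its call without replicate 1 or 2 of HMGB2 KD or replicate 2 of WT, at -0.84, -1.05 and -0.80, and AKR1C2 without replicate 2 of HMGB2 KD, at -1.29.

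Genes around the pathway moved in both directions in HMGB2 KD. Over all tested genes 2.86% were called higher and 2.34% lower, so a single call is not read as a result about a list. Among 16 tested regulators and partners of NRF2, 1 was called higher and 1 lower. NFE2L3, a related transcription factor, rose from 18.7 and 22.4 CPM to 51.5 and 57.3 CPM, a log2 change of 1.40 with an SE of 0.14 (adjusted p 5.65e-05 by edgeR). Among 12 genes of cystine use and the ATF4 stress response, 4 were called higher and 1 lower. PHGDH and PSAT1 of serine synthesis rose by 1.32 and 1.07 and CHAC1, which degrades glutathione, rose by 0.94, while CTH, which makes cysteine, fell by 0.97. ATF3, a stress-induced transcription factor, and BTRC, part of a ligase that marks NRF2 for degradation, were called at 0.68 and -0.73 and were named after their values were seen. SLC40A1, the iron exporter ferroportin, fell by 1.41 and was the only one called of 8 tested genes of heme and iron handling. SOD2, the mitochondrial superoxide dismutase, fell by 1.19 and was the only one called of 22 other antioxidant enzymes, from 1897 and 1619 CPM to 954 and 590 CPM. Without replicate 2 of HMGB2 KD, SOD2 and CTH lost their calls, at -0.88 and -1.01, as did CTH without replicate 1 of WT, at -0.91, and SOD2 by DESeq2 (adjusted p 0.011).

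**Figure D2:**
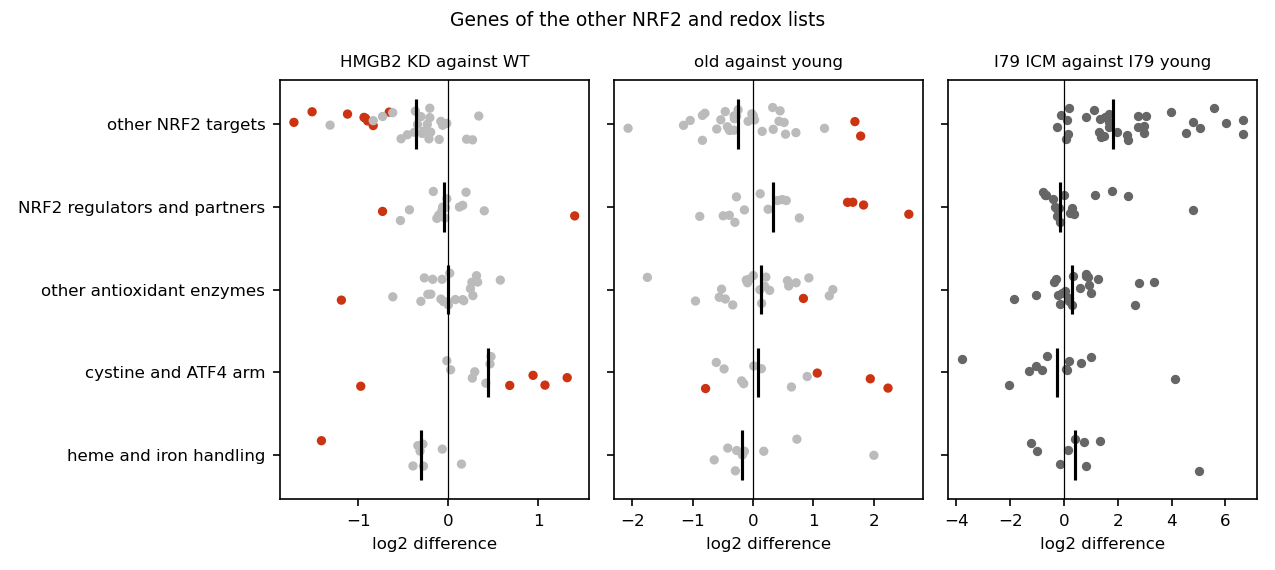
Log2 differences (x axis) of genes in 5 related lists (y axis, jittered points, black bars for list medians), for HMGB2 KD against WT, old against young over both isolates and I79 ICM against I79 young, with called genes in red where a test was run. The other NRF2 targets had medians of -0.35, -0.25 and 1.83 in the 3 panels, whose x axes differ in scale.

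The comparison of old with young cells addresses what changes in replicative senescence. SQSTM1 rose 2.15-fold, and it was the only one of the 10 genes called over both isolates. Against this, 5.75% of all tested genes were called higher and 3.82% lower. None of the 10 was called lower by edgeR, while at an unadjusted p under 0.05 2 were higher and 3 lower and DESeq2 called 1 lower. Over all tested genes DESeq2 called 1286 higher and 858 lower, beside 869 and 578 by edgeR. An unadjusted p under 0.05 was reached by 45.4% of all tested genes in this comparison, so 5 of 10 is near the background. The median log2 fold change of the 10 was 0.04, and that of all tested genes -0.01. The fit had the 2 isolates as replicates and left 1 residual degree of freedom.

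**Figure D3:**
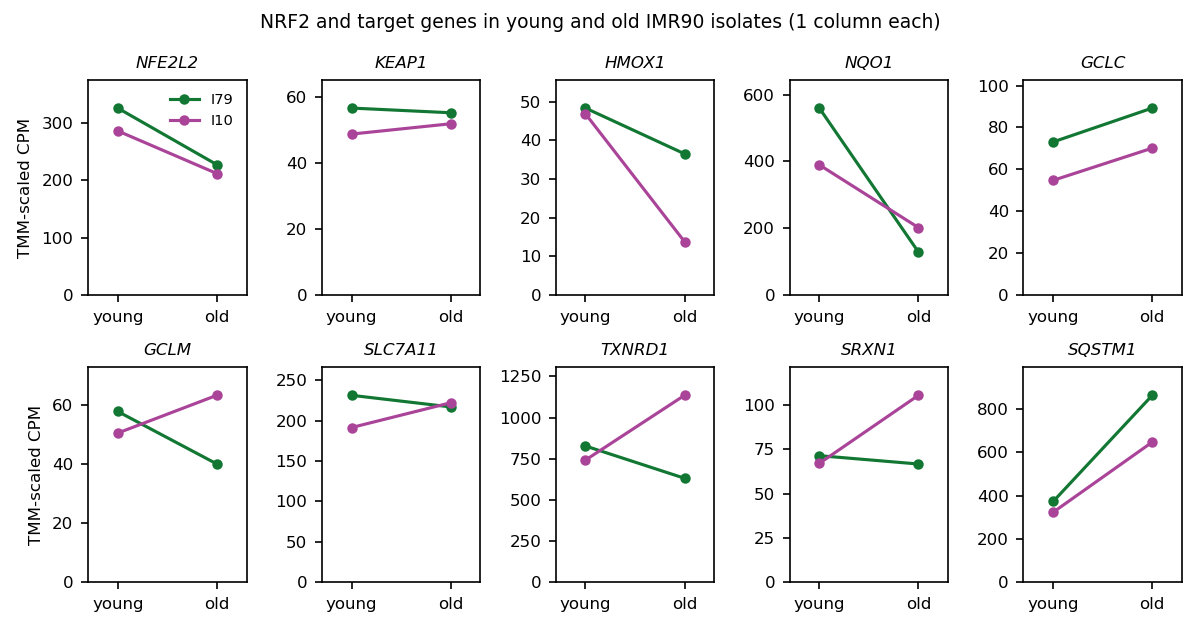
TMM-scaled CPM (y axis, linear from 0, 1 panel per gene) in young and old cells of isolates I79 and I10, with lines joining the columns of 1 isolate and no replicates within a column. SQSTM1 and GCLC lay higher and NFE2L2, HMOX1 and NQO1 lower in the old column of both isolates, while TXNRD1, SRXN1, GCLM, SLC7A11 and KEAP1 moved in opposite directions.

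SQSTM1 was at 374 CPM in I79 young and 863 CPM in I79 old, and at 324 CPM in I10 young and 648 CPM in I10 old. Both old columns lay above both young columns. The log2 ratio was 1.21 in I79 and 1.00 in I10, with 95% counting intervals of 1.17 to 1.25 and 0.96 to 1.04, and the log2 fold change over both isolates was 1.10 (SE 0.13, adjusted p 0.0077 by edgeR). Its adjusted p moved just past the threshold with length-scaled counts (0.01004, log2 fold change 0.96) and without the isolate covariate (0.0111, log2 fold change 1.12).

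NQO1 was at 560 CPM in I79 young and 129 CPM in I79 old, and at 390 CPM in I10 young and 202 CPM in I10 old. Both old columns lay below both young columns, by 2.12 on the log2 scale in I79 (interval -2.18 to -2.05) and by 0.95 in I10 (interval -1.01 to -0.89). The log2 fold change over both isolates was -1.53, but with an SE of 0.30 the gene missed the threshold (adjusted p 0.022 by edgeR). NQO1 was called in the fit without a filter on low counts, with plain library totals and at an adjusted p under 0.05.

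HMOX1 was at 48.3 CPM in I79 young and 36.5 CPM in I79 old, and at 46.8 CPM in I10 young and 13.8 CPM in I10 old. It was lower in both old columns, by very different amounts, with log2 ratios of -0.40 in I79 (interval -0.56 to -0.25) and -1.75 in I10 (interval -1.97 to -1.56). The log2 fold change over both isolates was -1.06 (SE 0.34, adjusted p 0.071 by edgeR), and HMOX1 was called by DESeq2 and in the fit without a filter.

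NFE2L2 was at 325 CPM in I79 young and 227 CPM in I79 old, and at 286 CPM in I10 young and 212 CPM in I10 old. The log2 fold change was -0.48 (SE 0.11, adjusted p 0.033 by edgeR), short of both thresholds. With plain library totals, which lowered the median of all tested genes to -0.22, NFE2L2 was at -0.69 and was called. KEAP1 was at 56.6 CPM in I79 young and 55.2 CPM in I79 old, and at 48.8 CPM in I10 young and 51.9 CPM in I10 old. Its log2 ratios of -0.04 and 0.09 both had counting intervals that included 0.

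Within each isolate, where 1 column stood for each group and no test was possible, 1 of the 10 genes was past 0.6 higher and 1 lower in I79, against 21.6% and 19.6% of all genes. In I10, 3 were past 0.6 higher and 2 lower, against 18.5% and 18.8% of all genes. The signs of the old to young ratio were opposite in I79 and I10 for 5 of the 10 genes, against 19.1% of all genes. For SLC7A11 and KEAP1 this depended on TMM scaling, since by plain totals over shared genes both were lower in both old columns.

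TXNRD1 was at 827 CPM in I79 young and 632 CPM in I79 old, and at 742 CPM in I10 young and 1135 CPM in I10 old. Its log2 ratio was -0.39 in I79 (interval -0.43 to -0.35) and 0.61 in I10 (interval 0.58 to 0.64). SRXN1 was at 71.4 CPM in I79 young and 66.7 CPM in I79 old, and at 67.1 CPM in I10 young and 105 CPM in I10 old. The log2 ratio of SRXN1 was -0.10 in I79, with an interval of -0.22 to 0.02 that included 0, and 0.65 in I10 (interval 0.55 to 0.76). GCLM was at 57.9 CPM in I79 young and 40.1 CPM in I79 old, and at 50.6 CPM in I10 young and 63.4 CPM in I10 old. SLC7A11 was at 231 CPM in I79 young and 217 CPM in I79 old, and at 191 CPM in I10 young and 222 CPM in I10 old. GCLC moved up in both isolates, in I79 from 73.1 to 89.2 CPM and in I10 from 54.8 to 70.1 CPM, with a fitted log2 change of 0.32 ± 0.10 (SE) and an adjusted p of 0.064 by edgeR. Over both isolates, TXNRD1, SRXN1, GCLM and SLC7A11 had log2 fold changes of 0.11, 0.28, -0.10 and 0.06 with adjusted p-values of 0.77, 0.32, 0.76 and 0.74 by edgeR. The signs for TXNRD1 and SLC7A11 turned with plain library totals, to -0.10 and -0.15.

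Several partners of NRF2 rose with replicative senescence. Of 16 tested regulators and partners, 4 were called higher and 0 lower by edgeR, against 5.75% and 3.82% of all tested genes. At an unadjusted p under 0.05, which 45.4% of all tested genes reached, 8 were higher and 3 lower, and DESeq2 called 5 higher and 0 lower. DESeq2 called more of all tested genes than edgeR did, 1286 higher and 858 lower beside 869 and 578. BACH1, a repressor that competes for antioxidant response elements, measured 53.4 CPM in I79 young and 160.0 in I79 old, with 55.1 CPM in I10 young and 182 in I10 old (fitted log2 change 1.65 ± 0.11, SE, adjusted p 0.0036 by edgeR). MAFF and MAFK, small MAF proteins that pair with both NRF2 and BACH1, rose by 1.83 and 1.57, and NFE2L3 rose by 2.58 on the log2 scale. Of 31 tested other NRF2 targets, 2 were called higher, AKR1B1 by 1.78 and ABCC3 by 1.69, and 0 lower by edgeR. That is near the share of all tested genes called higher. At an unadjusted p under 0.05, 5 were higher and 7 lower, a share below the 45.4% of all tested genes, and DESeq2 called 3 each way. Of the 12 genes of cystine use and the ATF4 response, ATF3, CHAC1 and TRIB3 rose, by 2.24, 1.94 and 1.07, and PHGDH fell by 0.79. TRIB3 and PHGDH lost their calls without the isolate covariate (adjusted p 0.023 and 0.0103 by edgeR), and TRIB3 also with length-scaled counts (adjusted p 0.0115). PRDX4, a peroxiredoxin of the endoplasmic reticulum, rose by 0.84 and was the only one called of 22 other antioxidant enzymes, also near that share. None of the 9 genes of heme and iron handling was called by edgeR, while 2 were higher and 3 lower at an unadjusted p under 0.05, near the 45.4% of all tested genes, and DESeq2 called 2 higher. Over the same columns the 5 immune markers summed to 24.6 CPM in I79 young and 160.2 CPM in I79 old. In I10 they summed to 27.0 CPM in young and 81.6 CPM in old cells. CD68 was the only 1 of the 5 to pass the filter on low counts, and it rose by 2.37 on the log2 scale. The sums are thus no sign that the other immune markers rose, and the part of these markers in the results was not tested.

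The transcript tables show which forms of the 10 genes were counted. Of the 10, 8 had the same leading transcript by estimated counts in all 4 old and young columns. These include SRXN1, which had only 1 transcript listed and so could not differ. HMOX1 and SLC7A11 were counted almost wholly in 1 transcript each, with 98.6% or more of the gene's estimated counts. TXNRD1-201 held 49.0% to 51.5% of the TXNRD1 counts, and KEAP1-202 held 81.4% to 90.1% of those of KEAP1. TXNRD1-204 has the most upstream start listed for TXNRD1, on the side of the first promoter start shown above. It held 0 counts in I79 young, I79 old and I10 young, and 0.36% of the gene's counts in I10 old. SQSTM1 shifted in share, with SQSTM1-202, which starts 1580 bases upstream of SQSTM1-201 in GRCh37, holding 26.0% of the gene's counts in I79 young and 36.2% in I79 old, and 25.3% in I10 young and 47.5% in I10 old. SQSTM1-201 went from 65.0% to 56.1% in I79 and from 58.1% to 46.0% in I10, although its estimated counts rose in both isolates, from 3793 to 8932 and from 3607 to 5395. NQO1 was spread over NQO1-203, NQO1-206 and NQO1-202, and the order of these differed between columns. The estimates carry no replicate error, so these shares are descriptions.

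The ICM libraries address what a chemically induced senescence-like state does to the same genes, within the limit that they were counted in another way than every other table. In both ICM libraries 9 of the 10 genes stood above I79 young over all reads, with HMOX1, SRXN1 and SQSTM1 at 18.7-fold, 15.5-fold and 10.3-fold. KEAP1, NQO1, GCLC and SLC7A11 were at 2.36-fold, 2.50-fold, 2.34-fold and 2.11-fold. For these, 2628, 2475, 2665 and 2961 of the 14341 genes compared had a higher ratio. Between 80.5% and 83.0% of the SRXN1 reads lay in the trailer, and over coding and noncoding reads its log2 ratio of 2.07 was below that of GCLM (2.68). On log2 CPM over shared genes, 9 of the 10 were past 0.6 higher and 1 lower, against 30.7% and 29.4% of the 14341 genes compared. The same ratio taken for WT, which was not given ICM by its labels and was counted by a different procedure again, had 2 of 9 genes past 0.6 higher and 0 lower, against 21.4% and 22.4% of all genes. SQSTM1 was left out of the latter for its lack of counts. Because the counting differs between the tables, treatment and counting cannot be told apart in these ratios and no test was run. The sample titles do not say whether I79 young cells received a vehicle or were prepared together with the ICM libraries. Vehicle and preparation therefore cannot be told apart from treatment either. This comparison and that of I79 old with I79 young share the I79 young column.

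**Figure D4:**
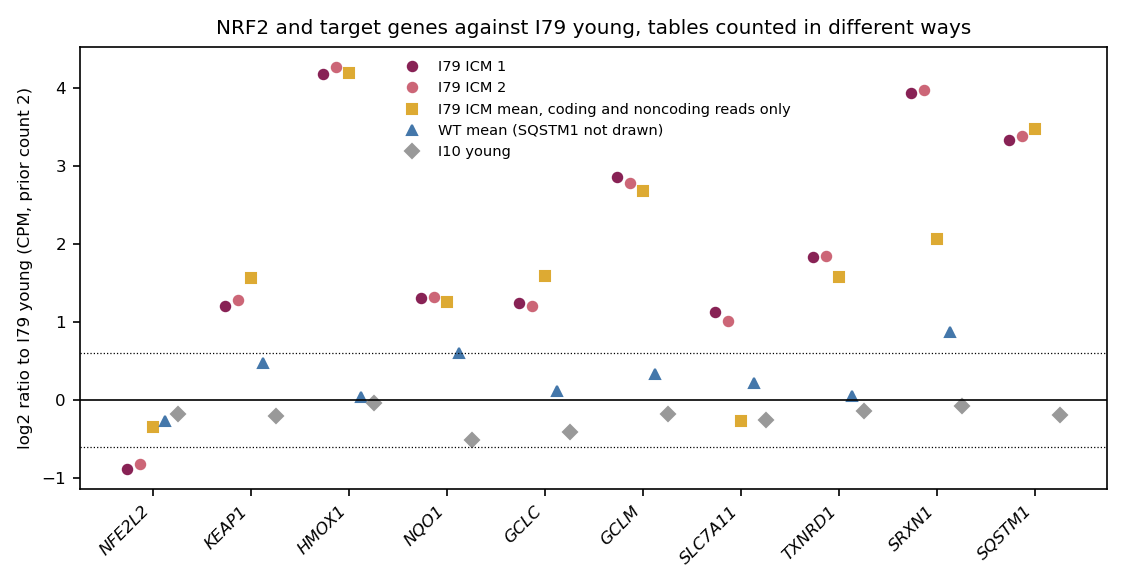
Log2 ratio to I79 young (y axis, CPM over shared genes with a prior count of 2) for each of the 10 genes in the 2 ICM libraries, for the ICM mean over coding and noncoding reads alone, and for the WT mean and I10 young as backgrounds. Dotted lines mark 0.6 either side of 0, and the ICM libraries lie near each other for every gene, below 0 for NFE2L2 and above 1 for the other 9.

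HMOX1 was at 996 and 1064 CPM in the ICM libraries, against 55.1 CPM in I79 young, 37.04 CPM in I79 old and 55.2 and 57.6 CPM in WT. The log2 ratio to I79 young was 4.22, and 673 of the 14341 genes had a higher one. The WT ratio was 0.03. Over the columns without ICM, HMOX1 ranged from 13.3 CPM in I10 old to 112 CPM in an HMGB2 KD library, all below the ICM libraries.

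SRXN1 was at 1246 and 1281 CPM with ICM, against 81.4 CPM in I79 young, 67.7 CPM in I79 old and 153 and 146 CPM in WT. Its log2 ratio was 3.95 over all reads and 2.07 over coding reads alone, and the WT ratio was 0.88. TXNRD1 was at 3363 and 3394 CPM with ICM, against 943 CPM in I79 young, 641 CPM in I79 old and 970.2 and 982 CPM in WT. Both genes of the thioredoxin system were therefore above every column without ICM, TXNRD1 with a log2 ratio of 1.84 and a WT ratio of 0.05.

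GCLM was at 481 and 454 CPM with ICM, against 66.05 CPM in I79 young and 86.5 and 80.5 CPM in WT, a log2 ratio of 2.82. GCLC was at 198 and 192 CPM with ICM, against 83.3 CPM in I79 young and 83.7 and 97.5 CPM in WT, a log2 ratio of 1.22. SLC7A11 was at 578 and 534 CPM with ICM, against 263 CPM in I79 young and 293 and 319.8 CPM in WT, a log2 ratio of 1.08. The ratio of SLC7A11 turned to -0.26 when only coding and noncoding reads of the ICM tables were kept, whereas GCLC and GCLM then had ratios of 1.59 and 2.68. That setting drops leader and trailer reads on the ICM side alone, so it lowers genes with a long trailer by construction.

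NQO1 was at 1586 and 1603 CPM with ICM, against 638 CPM in I79 young, 131 CPM in I79 old and 1004 and 937 CPM in WT. Its log2 ratio to I79 young was 1.32, with a WT ratio of 0.60, and its log2 ratio to I79 old was 3.60. SQSTM1 was at 4308 and 4469 CPM with ICM, against 426 CPM in I79 young and 876 CPM in I79 old. SQSTM1 lay above I79 young with ICM and in I79 old, with log2 ratios of 3.37 and 1.04 on this scale. NQO1 lay above I79 young with ICM and below it in I79 old, at -2.28. SQSTM1 has no WT ratio to set beside its ICM ratio. Its overlapping neighbours on the opposite strand also held more counts with ICM. MRNIP held 216 in I79 young and 2556 and 2012 with ICM, and MGAT4B 1622, then 3828 and 3322. Sharing of reads at this locus was not tested.

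NFE2L2 was at 202 and 211 CPM with ICM, against 371 CPM in I79 young, 230.4 CPM in I79 old and 312 and 303 CPM in WT. Over all reads it was the only one of the 10 genes below I79 young with ICM, at a log2 ratio of -0.85, and over coding and noncoding reads it was at -0.34 beside SLC7A11 at -0.26. KEAP1 was at 149 and 157 CPM with ICM, against 64.6 CPM in I79 young and 92.3 and 87.5 CPM in WT, a log2 ratio of 1.24 with a WT ratio of 0.48.

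The ICM tables divide reads by transcript region, which shows where on each message the values came from. Coding reads made up 91.8% of the NFE2L2 reads in both libraries, with 1.19% and 0.80% in the trailer, the untranslated stretch after the stop codon. SRXN1 was at the other end, with 80.5% and 83.0% of its reads in the trailer, and SLC7A11 had 67.1% and 66.2% there. Over all genes, coding reads took 61.1% and 61.9%. The 2 libraries gave nearly the same split for each gene.

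**Figure D5:**
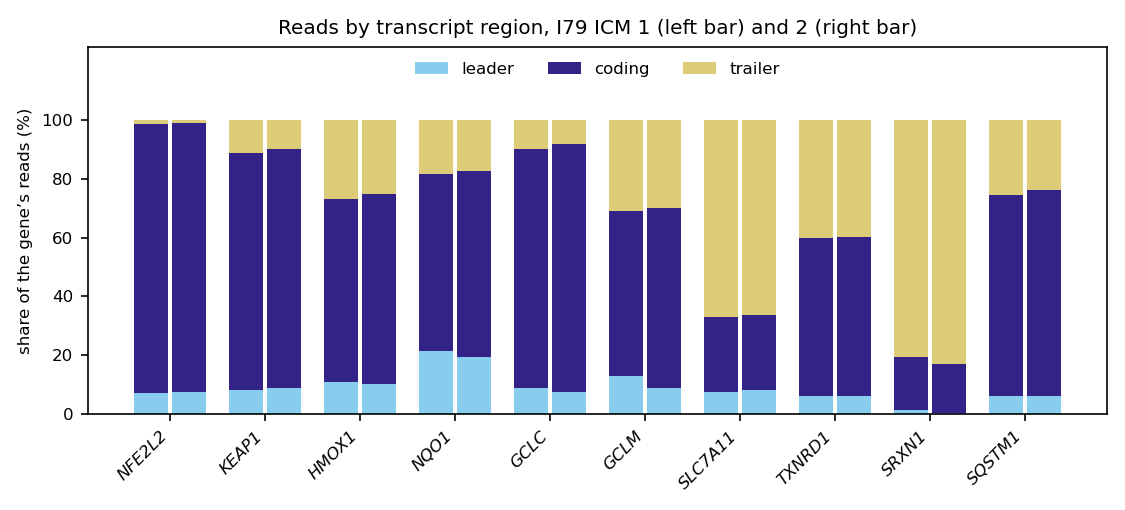
Share of each gene's reads (y axis, percent) in the leader, coding and trailer regions of its messages in the 2 ICM libraries (left and right bar of a pair). Trailer reads ranged from 0.80% of NFE2L2 reads to 83.0% of SRXN1 reads, and the bars of a pair are close for every gene.

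The other NRF2 targets stood above I79 young in the ICM libraries as well. Of 32 compared, 26 were past 0.6 higher and 0 lower, with a median log2 ratio of 1.83, while WT had 16 past 0.6 higher and 5 lower, with a median of 0.49. AKR1C1 and AKR1B10 had log2 ratios of 4.81 and 5.57 with ICM and 1.11 and 2.14 in WT, while GSTP1, at 6.64 with ICM, was also at 6.02 in WT, chosen here after its values were seen. Over all genes compared, 30.7% were past 0.6 higher and 29.4% lower with ICM, and 21.4% and 22.4% in WT. Regulators and partners had 4 of 17 past 0.6 higher and 3 lower with ICM, both below the shares of all genes, and a median of -0.15. Of 22 other antioxidant enzymes, 9 were past 0.6 higher and 2 lower with ICM, beside 7 and 2 in WT. BACH1 was at -0.17 with ICM, against an old to young log2 ratio of 1.58 in I79. NFE2L3 was at -0.26 with ICM and at 2.99 in I79 old against young. MAFF and MAFK were at 1.80 and 2.40 with ICM, yet WT was at 2.64 and 1.97 and their coding reads alone gave -0.08 and 0.21. As further label checks on this scale, CDKN1A, HMGB2 and LMNB1 had log2 ratios of 3.09, -4.73 and -7.32 with ICM and of 1.66, -2.23 and -1.94 in WT, so WT libraries differed from I79 young in these genes too.

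NQO1 had the largest summed log2 change of the 10 genes over the knockdown and the 2 isolates. By Euclidean distance over these 3 log2 changes, among 12775 genes that passed both filters, the genes nearest to it were PTHLH (distance 0.29), KIF18A (0.37) and PTENP1 (0.47). PTHLH encodes a hormone-like peptide and KIF18A a mitotic kinesin. PTHLH had log2 changes of -1.25 in HMGB2 KD, -2.32 in I79 and -0.75 in I10, beside -1.26, -2.12 and -0.95 for NQO1.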

How the data were processed

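The 10 genes and the related lists were chosen with earlier results of these data known. The WT and HMGB2 KD tables were deposited as counts of reads per gene, not normalized (54628 gene rows). The submitters' processing notes name STAR 2.6.0c, GRCh37 and featureCounts, but the tables end with summary rows of another layout (16.9% to 18.0% of the totals, left out), so the counter and its use of strand are not given in the sources used here. For old and young cells the authors deposited estimated counts, TPM and transcript lengths per transcript, 1 table per group where the titles list 2 replicates. These were summed per gene through GENCODE v44 lifted to GRCh37, rounded, and treated as 1 pooled value of the authors. For ICM the authors deposited estimated counts per gene and transcript region, fractional where reads were shared, and their aligner and annotation are not given in the sources used here. A deposited table of the authors' own fold changes and p-values was not used.

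Tests used edgeR 4.0.16 in R 4.3.3 (quasi-likelihood, TMM, filterByExpr, Benjamini-Hochberg, called at an adjusted p under 0.01 and a log2 fold change past 0.6), with DESeq2 1.42.0 as an alternative. The SE was taken as the size of the log2 fold change over the square root of F. Old was compared with young with isolate as covariate. ICM was set against I79 young on log2 CPM with a prior count of 2, over shared genes with at least 10 counts in 2 of the ICM, WT and I79 young columns. Counting intervals are exact 95% Clopper-Pearson intervals, and cover counting error only since reads carry no molecular identifiers. On simulated counts with 200 genes changed by 1.5 (log2), 77.5% were recovered with 1 false call in the knockdown design (15338 genes), and 80.5% with 1 in the old against young design (15116 genes). The simulated counts held no difference between isolates, so they do not show the error rate where the isolates change differently. Replicates were not duplicates (chi-square per degree of freedom 18.0 in WT, 28.0 in HMGB2 KD, 1.94 in ICM). Named genes were the 10 genes, at most 12 called list genes per comparison by size of change, 3 label checks and the 3 genes nearest to the member with the largest summed change. Python 3.11.15 and scipy 1.17.1 were used. Protein sequences were not used here.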

Additional observations from a re-analysis of the deposited data

Results flagged for a closer look

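On TMM-scaled values, old cells lay above young in 1 isolate and below in the other for 5 of the 10 genes. The difference between the isolates (log2 change in I79 minus that in I10) was -1.002 for TXNRD1, -0.85 for GCLM, -0.75 for SRXN1, -0.31 for SLC7A11 and -0.13 for KEAP1. All 5 differences were below 0. With 1 column per isolate and age these differences were not tested. The counting intervals of the isolates' ratios did not overlap for TXNRD1, GCLM, SRXN1 and SLC7A11, but overlapped for KEAP1. These intervals cover counting error only and are narrow at such counts. No share over all genes is given for intervals that lie apart or for the sign of the difference. Neither is therefore read as a trait of these genes. The I79 intervals of SRXN1 (-0.22 to 0.02) and KEAP1 (-0.17 to 0.10) included 0, so their direction in I79 was within counting error.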

How the results depend on the processing

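In HMGB2 KD against WT, 797 genes were called. The count was 1187 at an adjusted p under 0.05, 1163 with 1 RUVs factor, 1175 with no filter on low counts and 312 to 999 when 1 library was left out (312 without HMGB2 KD replicate 2). With the replicate block it was 1243, with 5 of the 10 genes called as without it. Same-numbered WT and HMGB2 KD libraries deviated together with a correlation of 0.12 over 2 pairs, and no label says that a number marks a shared batch, so the numbers were not used to pair the samples. Members called ranged from 3 to 4 when 1 library was left out. Plain library totals turned the balance of calls, from 438 higher and 359 lower to 385 higher and 484 lower. SQSTM1 ranged from a log2 fold change of -1.05 to 0.48 when 1 library was left out, and without WT replicate 1 its sign turned.

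In old against young, 1447 genes were called (869 higher, 578 lower), and 4251 with no filter on low counts, 3130 with plain library totals (1019 higher, 2111 lower) and 3860 at an adjusted p under 0.05. Members called were 2 with DESeq2 and at an adjusted p under 0.05, 3 with no filter on low counts and with plain library totals, and 0 with length-scaled counts and without the isolate covariate. KEAP1 turned to -0.10 with length-scaled counts and to -0.18 with plain library totals, and SLC7A11 and TXNRD1 to -0.15 and -0.10 with plain library totals. With 1 isolate left out no test was possible and no count of calls was made. Over single isolates, log2 ratios ranged from -0.53 to 0.32 for GCLM, -0.0366 to 0.0893 for KEAP1, -0.0924 to 0.21 for SLC7A11, -0.39 to 0.61 for TXNRD1 and -0.10 to 0.65 for SRXN1. Except where the construction of an alternative shows it, the cause was not tested.

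In I79 ICM against I79 young, 8 or 9 genes stayed past 0.6 higher under every alternative, and SLC7A11 turned to -0.26 over coding and noncoding reads. The leading transcript by TPM was another one than by estimated counts for NFE2L2, NQO1 and GCLM in I79 young. SQSTM1 had no usable value in WT and HMGB2 KD although these were the deepest libraries, and the cause was not tested. With 1 column per old or young group no value there has a replicate error.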
